A study of Mus musculus with 10 samples.

Results

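The insulin-like growth factor (IGF) axis was followed in germ cell RNA of mice with a mutant GRTH helicase, as a group of genes chosen by symbol: the ligands Igf1 and Igf2, the receptors Igf1r and Igf2r, and the binding proteins Igfbp2 to Igfbp7. Of the 10 symbols, 9 had a row among the 15507 genes in the table, and Igfbp5 was not analysed here. All 9 passed the filter on low values. WT mice carried mouse GRTH, and knock-in (KI) mice were homozygous for human GRTH carrying R242H, a missense change. All mice were 45 days old and no treatment was named for either genotype. Germ cells were released from the testes with collagenase and trypsin and passed through strainers, and poly(A) RNA of each mouse gave 1 library, 5 WT and 5 KI. No sort on a cell marker was described, so that a preparation held spermatogonia, spermatocytes and spermatids together with any somatic cells that came through. The KI allele was present in every cell of the mouse, somatic cells included.

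IGF1 and IGF2 are secreted peptides related to insulin. They signal through the receptor tyrosine kinase IGF1R, while IGF2R, the cation-independent mannose 6-phosphate receptor, takes up IGF2 and delivers it to lysosomes. In the testis the axis is known for its part in Sertoli cell proliferation and Leydig cell steroid synthesis, and somatic cells are a main source of the ligands.

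Reads recovered on genes ranged from 13323024 to 16422347 per WT library (median 15203687) and from 12722086 to 15500582 per KI library (median 15182116). Values are normalized counts, that is, reads divided by a size factor per library, so that libraries are level on the typical gene. A count of 0 leaves up to 3 reads possible, which was 2.61 to 3.62 normalized counts depending on the library and covers counting error only. Genotypes were compared with limma on log2(normalized count + 1), with p-values adjusted over the 15389 genes tested. A gene was called at an adjusted p under 0.05 together with a fold change of 1.5 or more. Fold changes, KI against WT, are on this log2 scale with their standard error (SE). The added 1 understates the change of low genes.

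The targeted gene, Ddx25, was read first as a check on the labels. Its normalized counts were 7615, 7782, 5198, 11101 and 9458 in WT libraries 1 to 5. In KI libraries 1 to 5 they were 146.0, 194, 161, 2.88 and 1.84. Every KI library lay below every WT library, and KI libraries 4 and 5, with 3 and 2 reads, lay at or under the limit set by 3 reads. The log2 fold change was −7.84 (SE 1.03; limma, adjusted p = 5.63e-05), a value that depends on the added 1 because of those libraries. Reads were aligned to the mouse genome, whereas the KI allele is human GRTH. These counts are therefore of mouse Ddx25 and need not measure RNA of the human allele. KI libraries 1 to 3 held more Ddx25 reads than KI libraries 4 and 5. The study describes libraries 1 to 3 and libraries 4 and 5 of both genotypes with different mean read quality, so results of the IGF axis are also given within each set.

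Of the 9 measured members of the axis, 6 were called higher in KI, and the share of all tested genes called higher was 6.13%. The 6 were both ligands and the binding proteins Igfbp3, Igfbp4, Igfbp6 and Igfbp7. None was called lower, against 8.22% of all tested genes, and no member was lower at an unadjusted p under 0.05 or called lower by edgeR or DESeq2 (0 of 9 in each). In 5 of the 9 every KI library lay above every WT library, which held for 6.8% of all tested genes. In RNA of mixed cells, fewer or more cells of a type and less or more RNA per cell cannot be told apart, and markers of somatic cells, among them Insl3 of Leydig cells, were present in every library beside those of germ cells. Of the tested somatic markers, 6 of 6 of stromal fibroblasts, 5 of 9 of macrophages, 4 of 7 of Leydig cells, 2 of 5 of peritubular myoid cells and 2 of 6 of endothelial cells were called higher in KI, and 0 of 8 of Sertoli cells (limma, edgeR and DESeq2; 0 at an unadjusted p under 0.05). Of elongating spermatid markers, 6 of 6 were called lower. The median log2 fold change was 0.67 over the 9 members and 0.03 over all tested genes. On library totals in place of the deposited scaling, the median of all genes moved by 0.23, to 0.25, and calls over all genes went from 944 higher and 1265 lower to 2144 higher and 789 lower. With upper quartile scaling they were 1296 higher and 1025 lower. Against the median of the tested genes the log2 fold change of Igf1 was 1.27. A scaling shifts all genes of a library nearly alike, so that this value is the same under each scaling by construction and does not test the scaling.

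Igf1, at chr10:87858265-87937047 on the plus strand of mm10, encodes the ligand of IGF1R that carries much of the growth-promoting action of growth hormone. Its normalized counts were 70.1, 94.8, 89.4, 39.1 and 81.9 in WT libraries 1 to 5. They were 215, 175, 168, 133 and 209 in KI libraries 1 to 5. Each KI library was above the highest WT library, WT2, and the lowest library of each genotype was library 4. The WT mean was 75.0 ± 22.1 (SD, n = 5) and the KI mean 179.8 ± 33.4 (SD, n = 5). On the log2 scale this was a change of 1.29 (SE 0.22; limma, adjusted p = 0.000513). The change was 1.13 (SE 0.16) in libraries 1 to 3 alone and 1.54 (SE 0.34) in libraries 4 and 5 alone, and the call held in both. By log2 fold change Igf1 ranked 180th of the 15389 tested genes, counted from the highest.

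The table gives 1 count per gene, which adds the 8 annotated Igf1 transcripts together. The study measured Igf1 by PCR with the primer pair below, which shows the part of the mRNA that was amplified. Both primers matched all 8 transcripts and tell none of the isoforms apart. The capitals mark the 10 bases of the forward primer that lie on the far side of an exon junction, at chr10:87913619-87913628, the other bases lying at chr10:87864876-87864887. The reverse primer lies in the same later exon, at chr10:87913702-87913722, and the product is 116 bases on the mRNA.
Igf1 forward primer: gcttttacttcaACAAGCCCAC
Igf1 reverse primer: gtacatctccagtctcctcag

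Igf2, at chr7:142650768-142666816 on the minus strand, encodes the fetal growth ligand that is expressed from the paternal allele. Its normalized counts were 135, 176, 135, 115 and 183 in WT libraries 1 to 5. They were 273, 271, 238, 154 and 205 in KI libraries 1 to 5. KI libraries 1, 2, 3 and 5 were above every WT library, whereas KI library 4 fell among the WT values, below WT2 and WT5, so the groups overlapped. The means were 148.8 ± 29.0 (SD, n = 5) and 228 ± 49.9 (SD, n = 5), and the log2 fold change, 0.60 (SE 0.17; limma, adjusted p = 0.0196), was just past the fold threshold. The change was 0.81 (SE 0.14) in libraries 1 to 3 and 0.29 (SE 0.25, adjusted p = 0.521) in libraries 4 and 5, where the call was lost. It was also lost on leaving out any of 6 single libraries: the log2 fold change was then 0.57 without WT1, 0.58 without WT3, 0.52 without WT4, 0.53 without KI1, 0.53 without KI2 and 0.58 without KI3. Without KI1 and without KI2 the adjusted p also missed the threshold, at 0.0527 and 0.0555, and over all alternatives it ranged from 0.000228 to 0.521. Igf2 exons share 3596 bases with Gm49394 on the same strand and 98 bases with the antisense gene Igf2os, neither of which was listed. Strand is not named in the counting method, and the Igf2 count may include their reads. H19, the imprinted RNA next to Igf2 that is expressed from the maternal allele, was at 25.4 to 44.2 normalized counts in WT and 31.9 to 47.1 in KI and was not called (log2 fold change 0.06, SE 0.20).

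Neither receptor was called. Igf1r, at chr7:67952257-68233667 on the plus strand, was at 248, 205, 243, 279 and 395 normalized counts in WT libraries 1 to 5. In KI libraries 1 to 5 it was at 309, 239.9, 268, 290.4 and 439. The groups overlapped, and library 5 was the highest of each genotype. KI was above WT in 5 of 5 same-numbered pairs, and Igf1r was not called with the replicate number as a block either. The log2 fold change was 0.18 (SE 0.18, limma adjusted p = 0.533). On leaving out single libraries it ranged from 0.04 without KI5 to 0.32 without WT5. With library totals it was 0.41 (limma adjusted p = 0.0969). Igf2r, at chr17:12682406-12769706 on the minus strand, had a median of 295 and a highest value of 402 in WT and a median of 292 and a highest value of 388 in KI. The genotypes overlapped, with a log2 fold change of 0.07 (SE 0.16, adjusted p = 0.812) that turned to −0.06 without WT2 and to −0.02 without KI5. Library 5 was again the highest of each genotype. The related insulin receptor, Insr, was at 273 to 490.4 in WT and 327 to 589.7 in KI (log2 fold change 0.31, SE 0.18, adjusted p = 0.244), and it was the only gene tested of the list of insulin and its receptors.

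Binding proteins hold IGFs in the circulation and in the matrix around cells and set how much ligand reaches the receptor. Of the 5 binding proteins measured, 4 were called higher in KI and Igfbp2 was not. Igfbp3, the main carrier of IGFs in blood, at chr11:7206091-7213923 on the minus strand, had normalized counts of 27.2, 11.6, 22.9, 17.1 and 28.2 in WT libraries 1 to 5. In KI libraries 1 to 5 they were 93.8, 71.3, 116, 56.7 and 43.2. The groups did not overlap, and KI libraries 4 and 5 were the lowest of the KI group. The means were 21.4 ± 7.04 (SD, n = 5) and 76.3 ± 29.2 (SD, n = 5), and the log2 fold change, 1.77 (SE 0.29; limma, adjusted p = 0.000411), was the highest of the members and 65th of all tested genes. In libraries 1 to 3 the change was 2.19 (SE 0.30), and in libraries 4 and 5 it was 1.14 (SE 0.38) and not called (adjusted p = 0.073, range over all alternatives 3.82e-08 to 0.073). The difference between the sets, −1.05 (SE 0.49), had an unadjusted limma p of 0.0482 and an adjusted p of 0.306, so no difference between the sets was called.

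Igfbp4, at chr11:99041244-99052655 on the plus strand, encodes a binding protein that inhibits IGF action until it is cut by the protease PAPPA. It was at 92.1, 144, 149.8, 143 and 149 normalized counts in WT libraries 1 to 5. In KI libraries 1 to 5 it was at 219, 284, 229.6, 211 and 304. The groups did not overlap, and WT1 stood well below the other WT libraries. The log2 fold change was 0.88 (SE 0.16, limma adjusted p = 0.000787) and the call held in libraries 1 to 3 and in libraries 4 and 5.

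Igfbp6, at chr15:102144186-102149512 on the plus strand, encodes the binding protein that prefers IGF2 over IGF1. It was at 118, 219.7, 204, 158 and 241.9 in WT libraries 1 to 5. In KI libraries 1 to 5 it was at 342, 382, 396, 315 and 368. All KI libraries were above all WT libraries, with a closer spread (SD 32.3 in KI and 49.8 in WT, n = 5 each). The log2 fold change was 0.97 (SE 0.17, limma adjusted p = 0.000594), and it was called in both library sets.

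Igfbp7, at chr5:77349240-77408045 on the minus strand, encodes a secreted relative that binds IGFs weakly. It was at 297, 399, 343, 362 and 445 in WT libraries 1 to 5. In KI libraries 1 to 5 it was at 527, 619.7, 667, 486 and 642. The lowest KI library, KI4, was above the highest WT library, WT5. The log2 fold change was 0.67 (SE 0.12, limma adjusted p = 0.00108), and in libraries 4 and 5 alone it was 0.48 (SE 0.18), where the call was lost (adjusted p = 0.124, range over all alternatives 9.57e-06 to 0.124). Exons of Igfbp7 share 85 bases with those of Polr2b on the other strand. Igfbp2, at chr1:72824480-72852471 on the plus strand, encodes a binding protein abundant in serum and brain; it ranged from 166 to 253 in WT and from 198 to 273 in KI, overlapped, and was not called (log2 fold change 0.21, SE 0.13, adjusted p = 0.287).

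**Figure D1:**
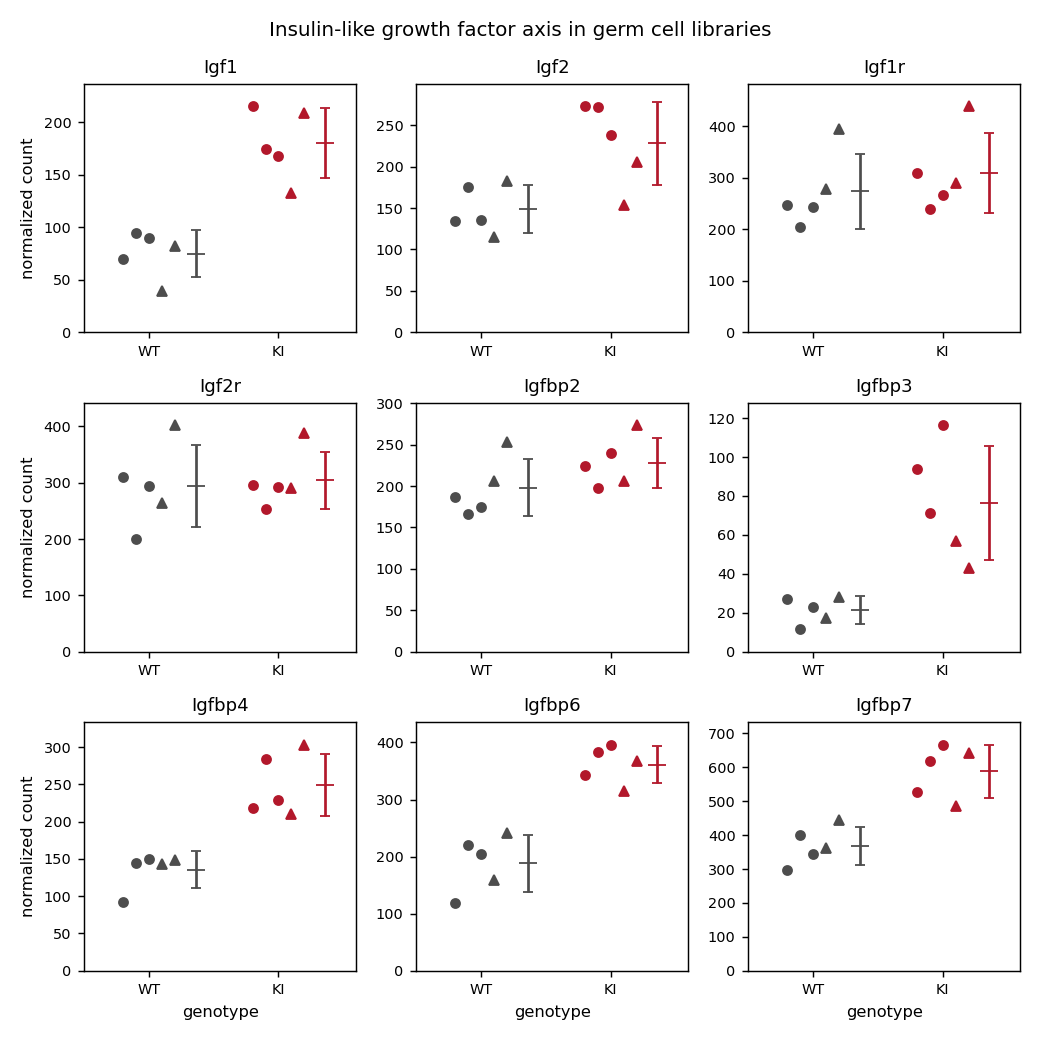
Normalized counts (vertical axis, from 0) of the 9 measured members by genotype (horizontal axis), with circles for libraries 1 to 3, triangles for libraries 4 and 5, and a bar at the mean with its SD (n = 5). Igf1, Igfbp3, Igfbp4, Igfbp6 and Igfbp7 do not overlap between WT and KI, KI4 of Igf2 falls among the WT values, and both receptors and Igfbp2 overlap.

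**Figure D2:**
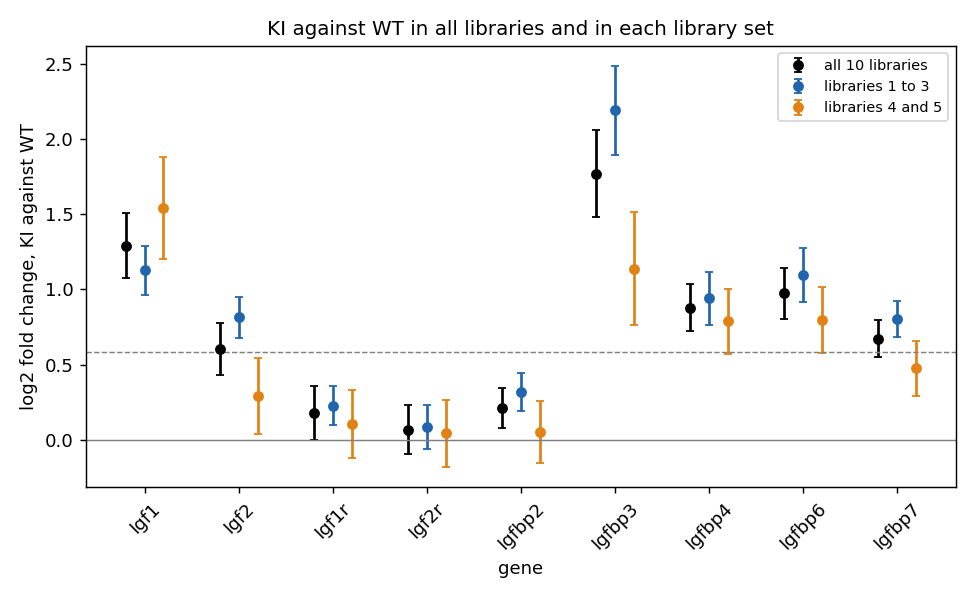
Log2 fold change of KI against WT (vertical axis) with its SE for each member (horizontal axis), in all 10 libraries, in libraries 1 to 3 and in libraries 4 and 5; the dashed line is a fold change of 1.5. Every point lies above 0, Igf2 and Igfbp7 lie under the dashed line in libraries 4 and 5, and Igfbp3 is the highest in all 10 libraries and in libraries 1 to 3.

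To compare levels between members, normalized counts were divided by the length of the merged exons of each gene in kb. In WT the order was Igfbp7 (305 ± 46.4 normalized counts per kb, SD, n = 5), Igfbp6 (169.5 ± 44.8), Igfbp2 (107 ± 18.7), Igf2r (31.6 ± 7.90), Igfbp4 (30.7 ± 5.56), Igf2 (26.0 ± 5.07), Igf1r (16.3 ± 4.34), Igf1 (7.58 ± 2.23) and Igfbp3 (6.84 ± 2.25). Igfbp6 and Igfbp2 overlapped between libraries, as did each neighbouring pair from Igf2r to Igf1r, and Igf1 with Igfbp3. In KI the level per kb of Igfbp7 was 487 ± 64.5, of Igfbp6 325 ± 29.1 and of Igfbp2 123.5 ± 16.2 (SD, n = 5). Igfbp4 (56.5 ± 9.47) then stood above Igf2r (32.7 ± 5.39), with Igf2 (39.9 ± 8.72) between them. Igfbp3 (24.4 ± 9.33), Igf1r (18.4 ± 4.58) and Igf1 (18.2 ± 3.38) came last and overlapped. Binding proteins thus held the top 3 places in both genotypes, also when the longest transcript was used for the length, where Igfbp4 passed Igf2r in WT. Of the summed level per kb of the 5 binding proteins, Igfbp7 made up 49.4% ± 1.74 in WT and 47.8% ± 1.33 in KI, Igfbp6 27.0% ± 3.79 and 32.0% ± 1.09, Igfbp2 17.5% ± 2.80 and 12.2% ± 1.33, and Igfbp3 1.14% ± 0.453 and 2.40% ± 0.842 (SD, n = 5; not tested).

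The upstream sequences of the members were compared because 4 binding protein genes on chromosomes 5, 11 and 15 were higher together. The RefSeq promoter table (GRCm38.p6) matched all 9 measured members, with 13 transcription starts, and the 250 bases before each start were searched on both strands for the GC box GGGCGG, the TATA box TATAAA, the CCAAT box CCAAT and the E-box CACGTG. Of 32817 promoters of the same length, 32.7% held the GC box, 12.4% the TATA box, 33.8% the CCAAT box and 6.02% the E-box. Among the 13 starts the GC box was found in 6, the TATA box in 2, the CCAAT box in 3 and the E-box in 2. Of the 4 binding protein genes that were higher, Igfbp4 held 1 TATA box, Igfbp6 held 1 TATA box and 2 CCAAT boxes, Igfbp7 held 4 GC boxes, and Igfbp3 held none of the letters searched. No motif was shared by all 4. The receptors Igf1r and Igf2r held 2 and 3 GC boxes. Whether these letters bear on any change between genotypes was not tested. The 3 promoters with matches are printed 5′ to 3′ with the matches in capitals; no match overlapped another, and a match is a run of letters, not a site known to be bound. They lie at chr11:99040994-99041243 (plus strand), chr15:102143936-102144185 (plus strand) and chr5:77408046-77408295 (minus strand), outside annotated exons, and 69.2%, 49.6% and 74.0% of their bases are G or C, against a median of 52.4% over all promoters.
Igfbp4 promoter: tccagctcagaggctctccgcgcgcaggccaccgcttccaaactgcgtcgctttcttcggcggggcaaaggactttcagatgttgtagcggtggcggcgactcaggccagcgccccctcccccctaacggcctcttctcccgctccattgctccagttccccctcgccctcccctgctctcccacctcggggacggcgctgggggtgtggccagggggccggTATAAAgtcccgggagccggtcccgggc
Igfbp6 promoter: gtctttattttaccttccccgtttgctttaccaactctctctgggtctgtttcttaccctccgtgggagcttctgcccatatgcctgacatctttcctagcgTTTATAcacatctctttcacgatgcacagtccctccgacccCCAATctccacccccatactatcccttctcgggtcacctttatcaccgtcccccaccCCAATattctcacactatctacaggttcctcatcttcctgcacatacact
Igfbp7 promoter: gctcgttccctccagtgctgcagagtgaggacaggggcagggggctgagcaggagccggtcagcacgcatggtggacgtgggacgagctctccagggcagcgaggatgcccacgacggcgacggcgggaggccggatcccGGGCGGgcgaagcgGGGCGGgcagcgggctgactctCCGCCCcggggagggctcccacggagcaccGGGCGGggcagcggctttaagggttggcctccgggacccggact

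Around the axis, 86 further genes in 11 lists were followed, of which 71 had a row and 70 were tested. Of the 70, 4 were called higher (5.71%), near the 6.13% of all tested genes, and their median log2 fold change was 0.09. None was called lower with limma, edgeR or DESeq2, against 8.22% of all tested genes with limma. Of the 70, 6 were lower at an unadjusted p under 0.05. The 4 genes called were Htra1, Htra3, Stc2 and Insl3. The first 3 belong to the proteases that cut binding proteins and their inhibitors, where 3 of 5 tested genes were called.

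HTRA1 is a secreted serine protease that cuts IGF binding proteins. Its normalized counts were 57.5, 63.6, 68.8, 70.2 and 128 in WT libraries 1 to 5 and 139, 159.9, 158, 139 and 297 in KI libraries 1 to 5. Library 5 was far above the others in each genotype, and the groups did not overlap. The log2 fold change was 1.19 (SE 0.24, limma adjusted p = 0.00179). Htra3, a relative with the same protease fold, was at 133 to 257 in WT and 242.3 to 448 in KI and overlapped (log2 fold change 0.81, SE 0.20, adjusted p = 0.00801). Stc2, an inhibitor of PAPPA, was low: it was at 3.47 to 11.5 in WT, with WT2 and WT3 at 3 reads, and at 13.0 to 39.6 in KI, without overlap (log2 fold change 1.58, SE 0.37, adjusted p = 0.00588). With 10 added to each value in place of 1, the log2 fold change of Stc2 was 0.90 (limma adjusted p = 0.00654), and it stayed called. In libraries 4 and 5 alone the log2 fold changes were 1.09 (SE 0.35) for Htra1 and 0.89 (SE 0.30) for Htra3, near those of all libraries. The calls were lost there (limma adjusted p = 0.0626 and 0.0809, and over all alternatives from 6.76e-06 to 0.0626 and from 2.52e-05 to 0.0809). That set holds fewer samples, and why the calls were lost was not tested. The protease Pappa itself (log2 fold change 0.17, SE 0.17, adjusted p = 0.527) and the lysosomal protease Ctsd (0.26, SE 0.11, adjusted p = 0.117) were not called, and Stc1 was too low to be tested.

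The signalling branches downstream of the receptors held no called gene: 0 of 12 tested receptor adaptors and attenuators, 0 of 25 genes of the PI3K-AKT-mTOR branch and 0 of 9 of the RAS-MAPK branch, by limma, edgeR and DESeq2 alike, with 1, 6 and 1 genes at an unadjusted p under 0.05. Their median log2 fold changes were 0.16, 0.03 and −0.02. Of all tested genes, limma called 6.13% higher and 8.22% lower. The summed adaptors and attenuators were at 3908 to 4081 in WT and 4143 to 4640 in KI, without overlap. That sum was higher in KI in 5 of 5 same-numbered pairs, and it was not tested or followed under other scalings. The sums of the PI3K-AKT-mTOR and RAS-MAPK branches overlapped and were higher in KI in 2 and 0 of 5 pairs. Several genes passed the adjusted p but not the fold threshold. Grb10, an imprinted adaptor that dampens receptor signalling, was at 437 to 611 in WT and 583 to 681 in KI (log2 fold change 0.31, SE 0.10, adjusted p = 0.043). Foxo4, a transcription factor that AKT holds out of the nucleus, was at 48.6 to 86.6 and 69.5 to 109 (0.58, SE 0.18, adjusted p = 0.0317), just under the threshold. Pdpk1, the kinase that activates AKT, did not overlap between genotypes, at 2246 to 3153 in WT and 1947 to 2212 in KI (−0.40, SE 0.10, adjusted p = 0.0101). The same held for the kinase Braf, at 997 to 1276 in WT and 720.5 to 968 in KI (−0.38, SE 0.10, adjusted p = 0.0126).

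The remaining lists were small. Of the IGF2 mRNA-binding proteins, 0 of 3 were called, although Igf2bp3, the most abundant of them, was at 1277 to 1902 in WT and at 1110 to 1249 in KI without overlap (log2 fold change −0.48, SE 0.10, adjusted p = 0.00372). It was called lower in libraries 1 to 3 alone. Of the growth hormone input, 0 of 5 were called; Stat5b, a transcription factor activated through the growth hormone receptor, was at 41.1 to 58.4 in WT and 63.4 to 93.8 in KI (0.49, SE 0.16, adjusted p = 0.0445), and the receptor Ghr was low, at 18.8 to 51.9 and 15.6 to 34.8 (−0.27, SE 0.30, adjusted p = 0.577). Of the mannose 6-phosphate sorting and endocytic partners, 0 of 5 were called, and Igfals, the only tested relative of the binding proteins, was not called (log2 fold change −0.02, SE 0.19). In each of these lists edgeR and DESeq2 called 0 genes, and 1, 1, 1 and 0 genes were at an unadjusted p under 0.05. In the relaxin family, which shares the insulin fold, Insl3 was called higher and Insl6 and Rxfp2 were not (log2 fold change −0.46 and −0.31, SE 0.21 and 0.14, adjusted p = 0.134 and 0.142). H19 was the only tested gene of the imprinted and antisense neighbours.

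Of 6 stromal fibroblast markers, 6 were called higher in KI, with a median log2 fold change of 1.14. Their summed normalized counts were 854, 1234, 1138, 674 and 1140 in WT libraries 1 to 5 and 2389, 2294, 2266, 1654 and 2326 in KI libraries 1 to 5. The groups did not overlap, and library 4 was the lowest of each genotype, as it was for Igf1 and Igf2. Of the other called members, Igfbp4, Igfbp6 and Igfbp7 were lowest in WT1 and KI4, and Igfbp3 in WT2 and KI5. Dcn was the most abundant of the 6 (408 in WT and 773 in KI), and Pdgfra, a growth factor receptor of stromal cells, was at 107 to 223 in WT and 338 to 475 in KI (log2 fold change 1.22, SE 0.18, limma adjusted p = 0.000194).

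Of 7 Leydig cell markers, 4 were called higher (Cyp11a1, Cyp17a1, Hsd3b6 and Insl3), with a median of 0.69. The 7 added up to 11902, 19503, 10875, 11735 and 15359 in WT libraries 1 to 5 and to 22928, 24150, 27046, 15729 and 26702 in KI libraries 1 to 5, where KI4 overlapped the WT values. Within replicate numbers the sum was higher in KI in 5 of 5 pairs, and with the replicate number as a block 6 of the 7 were called, Hsd3b1 and Lhcgr in addition. Insl3, the Leydig cell hormone of testis descent, made up 51.6% of the sum, at 5143 to 9211 in WT and 8281 to 16918 in KI (log2 fold change 0.82, SE 0.19, limma adjusted p = 0.00551), and its call was lost in libraries 4 and 5 alone (0.34, adjusted p = 0.213; range over all alternatives 5.35e-05 to 0.213). The count of Leydig markers called was 3 in libraries 1 to 3 alone and 1 in libraries 4 and 5 alone, and it was 1 without WT1, WT3 or KI5, 2 without WT4 and 7 without WT2. With library totals 7 were called, with the upper quartile, DESeq2 or a term for the library set 6, and with edgeR 3. No marker of this list or of the others was at 0 in any library.

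Of 9 macrophage markers, 5 were called higher (median 0.65), with sums of 747 to 949.7 in WT and 1042 to 1488 in KI and Mrc1 as the most abundant. Of 6 endothelial markers, 2 were called higher (median 0.31), with sums of 281 to 391 and 442 to 829.9 and Vwf as the most abundant. Vwf made up 59.9% of the sum. The 2 were Vwf (log2 fold change 1.05) and Cdh5 (0.66). Not called were Tek (0.46), Pecam1 (0.16), Kdr (0.15) and Egfl7 (−0.33), the last being lower in KI. Of 5 tested peritubular myoid markers, 2 were called higher (median 0.44), with sums over the 6 in the table, 1 of them too low to be tested, of 291 to 435 and 367 to 487 and Myl9 as the most abundant. The 2 were Acta2 (log2 fold change 0.78) and Des (1.04), and Des was low in WT, at 5.78 to 22.6. Myl9 (0.44) was not called, and neither were Myh11 (−0.30) and Tagln (−0.23), which were lower in KI. In libraries 1 to 3 alone and in libraries 4 and 5 alone, 2 and 3 macrophage, 2 and 1 endothelial and 3 and 0 myoid markers were called. The myoid count was 1 without WT2, KI1, KI3 or KI4, and the endothelial count 1 without KI5. Of 8 Sertoli cell markers, 0 were called by limma, edgeR or DESeq2 and 0 had an unadjusted p under 0.05 (median 0.19). Their sums were 2303 to 3603 in WT and 2460 to 4051 in KI, higher in KI in 3 of 5 same-numbered pairs. These were libraries 1 to 3, at 2604, 2303 and 3603 in WT and 3849, 3923 and 4051 in KI. Libraries 4 and 5 were lower in KI, at 2460 and 2686 against 2830 and 2793 in WT. Aard was the most abundant. The lists were not tested against each other.

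All 6 elongating spermatid markers were called lower in KI (median log2 fold change −2.41), with sums of 180721 to 338664 in WT and 22939 to 51941 in KI and Prm2 as the most abundant. The study reports that KI mice have no elongating spermatids. It also places mRNA of Tnp2 and Prm2 in round spermatids already, so these markers are not limited to elongating cells. Of round spermatid markers 0 of 6 were called (median −0.50, with 3 lower at an unadjusted p under 0.05). Their sums were 10116 to 12169 in WT and 5376 to 10376 in KI, higher in KI in 0 of 5 same-numbered pairs. Acrv1 was the most abundant. Catsper3 (log2 fold change −0.58, limma adjusted p = 0.000761) and Spaca1 (−0.53, limma adjusted p = 0.00604) were lower without overlap, short of the fold threshold. Of spermatocyte markers 0 of 8 were called (median −0.05; 1 higher and 1 lower at an unadjusted p under 0.05), with sums of 17201 to 24595 and 16274 to 21037 and Piwil1 as the most abundant. Of spermatogonium markers 0 of 7 were called (median 0.28; 1 higher and 1 lower), with sums of 1513 to 2158 and 1759 to 2105 and Uchl1 as the most abundant. In these last 3 lists edgeR and DESeq2 also called 0 genes, while the replicate number as a block called 1 round spermatid marker, Spaca7, lower. The part of the somatic and spermatid markers in the values of the IGF axis was not tested.

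**Figure D3:**
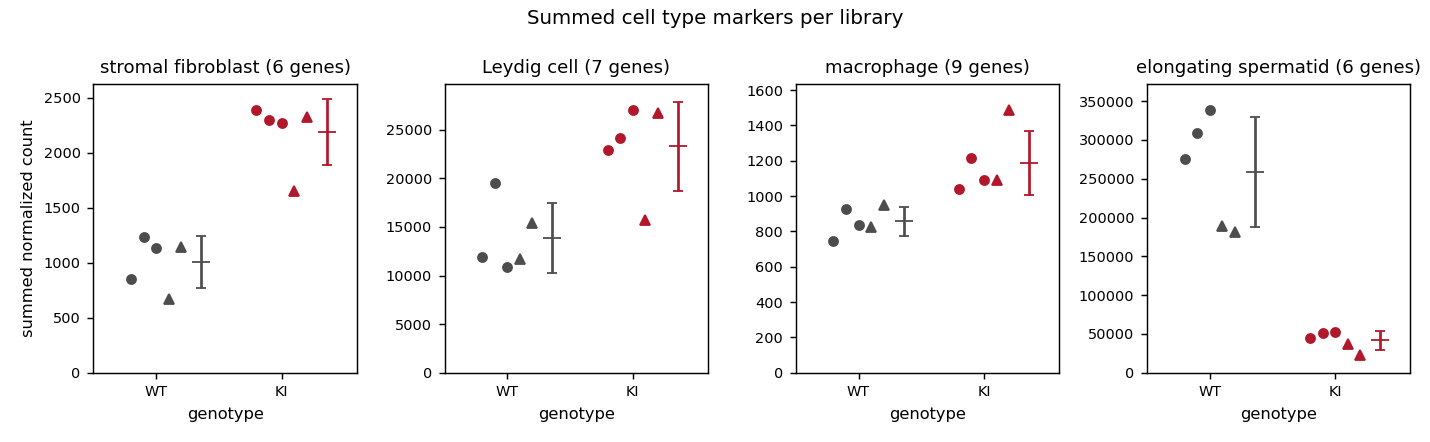
Summed normalized counts (vertical axis, from 0) of 4 marker lists by genotype (horizontal axis), with circles for libraries 1 to 3, triangles for libraries 4 and 5, and a bar at the mean with its SD (n = 5). Stromal fibroblast and macrophage markers are higher in all KI libraries without overlap, Leydig cell markers overlap through KI4, and elongating spermatid markers are lower in all KI libraries.

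After the genotype means were removed, the genes nearest to Igf1 over the 10 libraries were C1s1 (Pearson r = 0.965), Ston1 (0.936), Pdgfra (0.935), Lamb1 (0.933) and Slit3 (0.932), out of 10833 tested genes whose mean reached 100 normalized counts in either genotype. The genes nearest to Igf2 were Phyh (0.940), Osr2 (0.898), Ldhd (0.893), Hinfp (0.892) and Rnase4 (0.885), and these 5 reached a mean of 100 in KI only. These values describe the same 10 libraries for every gene and were picked as the highest of 10833.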

How the data were processed

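Groups and library numbers came from the labels. Reads had been trimmed and aligned with STAR (mm10) and assigned to RefSeq_v91 genes by Partek's E/M method. The authors deposited a signal per gene and library, the counts after division by DESeq2 size factors. Dividing by the value of 1 read gave whole reads for 100% of values under 5000 reads in each library (tolerance 0.1 reads); columns not assigned numbered 0. Genes were kept by filterByExpr of edgeR 4.0.16 by genotype on these reads and tested with limma 3.58.1 (R 4.3.3, variance trend, log2(value + 1), Benjamini-Hochberg adjustment). The steps were tested on simulated data. edgeR's quasi-likelihood test and DESeq2 1.42.0 on the recovered reads, other scalings, pseudocounts, filters, thresholds, covariates and library subsets were alternatives. Members and lists (11 around the axis, 10 of cell type markers) were chosen with earlier results of these data known. Genes named are the members, the called genes of the lists, Ddx25, the most abundant and defining markers, and the 5 genes nearest to each ligand; others were chosen after their values were seen.

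The labels give numbers 1 to 5 in each genotype and no shared litter or day. After removing genotype means, same-numbered libraries correlated with r of 0.306, 0.105, 0.280, 0.216 and 0.462, each over 0.1, so the numbers were taken as pairing the samples, from the data alone. Of 20 pairs with different numbers, 5 were also over 0.1 (up to 0.287, KI2 with WT3), all within libraries 1 to 3 or within libraries 4 and 5, and 4 of 5 KI libraries were nearest to their own number. Replicates differed beyond counting noise in all 20 pairs (chi-square per degree of freedom 2.67 to 46.4). Positions are those of the deposited table, with the end set 1 base before the deposited stop, which lay 1 base past the RefSeq end in 6954 of 9687 genes with the same start and at it in 322. Exons, lengths and transcripts are from GENCODE vM21 (GRCm38, the same build). Python 3.11.15 was used for summaries.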

Additional observations from a re-analysis of the deposited data

Results flagged for a closer look

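A single library stood apart from the other 4 of its genotype in 4 of 48 groups checked, where chance alone gives about 1 in 20. WT1 was low for Igfbp4, at 92.1 normalized counts against 143 to 149.8 in the other WT libraries. Library 5 was high for Htra1 in both genotypes, at 128 in WT against 57.5 to 70.2 and at 297 in KI against 139 to 159.9. KI4 was low for the summed stromal fibroblast markers, at 1654 against 2266 to 2389 in the other KI libraries. Without WT1 the log2 fold change of Igfbp4 was 0.75, and it stayed called.

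The KI effect on reads counted for mouse Ddx25 was larger in libraries 4 and 5 than in libraries 1 to 3, by −6.25 on the log2 scale (limma interaction). This size rests on the 1 added to values of 3 and 2 reads in KI4 and KI5, and the interaction says no more than the values per library given above. No member of the IGF axis had such a difference at an adjusted p under 0.05, against 38 of the 15389 genes tested, and 1 member, Igfbp3, was at an unadjusted p under 0.05.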

How the results depend on the processing

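Of 225 single-member values under alternatives, 212 kept their direction and stayed called or not called, 11 lost the call and 2 turned sign. Igf1, Igfbp4 and Igfbp6 were called in all 25 alternatives, with log2 fold changes of 1.08 to 1.54, 0.75 to 1.11 and 0.80 to 1.20. Igf2 lost its call in 9 of 25 (0.29 to 0.83), among them a pseudocount of 10 (0.58) and an adjusted p threshold of 0.01. Igf2r, 0.07, was −0.061 without WT replicate 2, −0.022 without KI replicate 5 and up to 0.19 without another library. With library totals it was 0.30, and its adjusted p over all alternatives was 0.18 to 0.943. Igfbp2 passed the adjusted p but not the fold threshold with library totals (0.44, adjusted p = 0.0296; over all alternatives 0.0296 to 0.908). In libraries 4 and 5 alone, which hold fewer samples, 3 members were called in place of 6. The log2 fold changes of Igf2 (0.29) and Igfbp7 (0.48) were then under the fold threshold. Igfbp3 (1.14) passed it and missed the adjusted p (limma, 0.073). The 4 pathway genes called higher became 7 with no fold threshold, and genes called lower became 3 with no fold threshold and 1 in libraries 1 to 3 alone (Igf2bp3) and in libraries 4 and 5 alone (Insl6), from 0. The difference between library sets for Igf1, 0.41, ranged from −0.11 without WT replicate 4 to 0.94 without WT replicate 5; the cause was not tested.

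Over all genes, 944 calls higher and 1265 lower became 2144 and 789 with library totals, 558 and 1044 with a mean of at least 50 reads, 605 and 1050 at an adjusted p under 0.01, 1485 and 2044 with no fold threshold, and 471 and 1093 in libraries 4 and 5 alone. With the replicate number as a block, 6 members and 4 pathway genes were called higher, and the block changed no call of a member or pathway gene. Among the markers it took Leydig cell markers from 4 to 6 called higher and round spermatid markers from 0 to 1 called lower, and it changed no other call of a listed gene. At an adjusted p under 0.01, 1 Leydig, 3 macrophage and 0 myoid markers were called, from 4, 5 and 2, and 1 myoid marker with edgeR or a mean of at least 50 reads. Low counts limit Stc2 and the Ddx25 values of KI4 and KI5. Igfbp3 was also low in WT, at 11.6 to 28.2 normalized counts. With 10 added to each value in place of 1, its log2 fold change went from 1.77 to 1.42 (limma adjusted p = 0.000326), and it stayed called.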
